A study of Mus musculus with 12 samples.

Results

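Prdm1, Hsd11b2, Mab21l4 and Clu are 4 of the 78317 genes in the expression table of mouse 4T1 cells. The first 3 of them were picked because they were near zero in untreated cells and were raised by TGFβ1, and clusterin (Clu) was added to them. The members were thus selected on their measured levels in these same libraries, that is on the TGFβ1 contrasts, and with no numeric threshold, so the rises below are a description and carry no test. In the table they are ENSMUSG00000038151 (Prdm1), ENSMUSG00000031891 (Hsd11b2), ENSMUSG00000034159 (Mab21l4) and ENSMUSG00000022037 (Clu). All 4 genes passed the filter on low counts, which left 14012 genes. Prdm1, which had only a few counts in untreated cells, was kept through its counts in the TGFβ1 libraries.

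4T1 cells come from a mouse mammary carcinoma of the triple-negative kind. The 4 groups were PBRM1 KO cells given 5 ng/ml TGFβ1 for 4 days, PBRM1 KO cells left untreated, control cells given the same TGFβ1 treatment, and control cells left untreated. Each group had 3 biological replicates, which makes 12 libraries. PBRM1, a protein with several bromodomains, belongs to the PBAF chromatin remodelling complex. The library names carry sgPB for PBRM1 KO cells and sgCt for control cells. Whether the knockout cells were 1 clone or a pool is not given in the sources used here. Each library counted deduplicated 3′ ends of messenger RNA, and levels are given as deposited CPM, the count scaled to the library's total.

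TGFβ1 binds receptor kinases at the cell surface that phosphorylate SMAD proteins, which move to the nucleus with SMAD4 and bind DNA next to partners such as AP-1. Prdm1 encodes BLIMP1, a zinc finger repressor known as the switch to the plasma cell state in B cells and also made by some epithelia. Hsd11b2 encodes the type 2 11β-hydroxysteroid dehydrogenase, which turns active corticosterone into its inactive 11-keto form and is best known from the collecting duct of the kidney, where it keeps glucocorticoid away from the mineralocorticoid receptor. Mab21l4 encodes a Mab-21 domain protein, known from human keratinocytes for a part in epidermal differentiation. Clu encodes clusterin, a secreted chaperone that binds misfolded proteins and lipids.

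Of the 4 genes, 2 were matched to a RefSeq promoter window, Prdm1 and Mab21l4, and these windows are shown because SMAD-binding and AP-1 letters can be looked for in them. Each window holds 250 bases before and 50 bases after the RefSeq start, on mouse build GRCm38.p6, minus strand; the expression table was made on mm39, a later build. Capitals mark the AP-1 motif TGANTCA, which reads the same on both strands, and the short SMAD-binding motif CAGAC or its reverse complement GTCTG. The Prdm1 window is chr10:44458699-44458998 and the Mab21l4 window is chr1:93160899-93161198.
Prdm1: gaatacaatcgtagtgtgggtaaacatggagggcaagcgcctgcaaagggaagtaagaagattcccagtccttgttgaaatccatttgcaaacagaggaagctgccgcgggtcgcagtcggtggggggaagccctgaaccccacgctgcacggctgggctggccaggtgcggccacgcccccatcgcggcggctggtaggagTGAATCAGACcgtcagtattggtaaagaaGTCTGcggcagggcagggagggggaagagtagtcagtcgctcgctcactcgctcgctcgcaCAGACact
Mab21l4: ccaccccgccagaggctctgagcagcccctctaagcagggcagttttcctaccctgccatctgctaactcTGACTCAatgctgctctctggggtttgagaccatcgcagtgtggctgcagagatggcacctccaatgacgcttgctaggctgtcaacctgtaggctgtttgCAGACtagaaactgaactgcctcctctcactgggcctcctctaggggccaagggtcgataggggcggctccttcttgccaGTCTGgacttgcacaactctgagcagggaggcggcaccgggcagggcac

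The N of the AP-1 motif was allowed to be any letter, a looser search than with a set middle letter. The 2 windows differ at that letter, which is A in Prdm1 and C in Mab21l4. The Prdm1 window had 1 AP-1 match, TGAATCA at position −48 from the start, and 3 SMAD matches, the first of which shares letters with it. The Mab21l4 window had 1 AP-1 match, TGACTCA at −180, and 2 SMAD matches. A second RefSeq start of Mab21l4 has an overlapping window in which both SMAD matches recur and the AP-1 letters do not occur. Of 32817 promoter windows of the same length, 7.81% held the AP-1 motif and 49.6% held the SMAD motif on either strand. The longer SMAD palindrome GTCTAGAC was in 0.213% of windows and in neither of these. A match is a description of letters and not a bound site.

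Library totals ran from 9265693 to 11250850 counts, with 22908 to 24402 genes detected. TGFβ1 replicate 3 stood apart in both genotypes. Over 15 tested SMAD target genes the median log2 rise in PBRM1 KO cells was 1.12, 1.25 and 0.48 in replicates 1, 2 and 3. The same medians in control cells were 1.08, 1.15 and 0.39. Pbrm1 itself had 222 to 274 CPM in PBRM1 KO cells and 276 to 292 CPM in control cells with TGFβ1, and 207 to 245 CPM in PBRM1 KO cells and 258 to 328 CPM in control cells untreated. Within each treatment every PBRM1 KO library was below every control library, as for 5.61% of tested genes with TGFβ1 and 8.71% untreated. The Pbrm1 log2 difference of −0.25 ± 0.10 with TGFβ1 (edgeR adjusted p = 0.513) and −0.33 ± 0.10 untreated (adjusted p = 0.349) did not pass, each with an unadjusted p below 0.05. A 3′ count need not read the edited part of the gene, so this checks the labels only weakly. Mammary epithelial markers summed to 2143 to 3034 CPM in every library, led by Krt18, Krt8 and Krt7, and of the basal markers Krt14 had 3.98 to 90.7 CPM, while Krt5 and Trp63 were at 0.546 CPM or less.

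All 4 genes were higher in each TGFβ1 library than in each untreated library of the same genotype. Prdm1 had 28.0, 27.0 and 2.77 CPM in PBRM1 KO cells with TGFβ1, against 0.533, 0.0910 and 0.185 CPM in untreated PBRM1 KO cells. Control cells had 29.0, 29.4 and 1.99 CPM with TGFβ1, against 0.542, 0.276 and 0.213 CPM untreated. The untreated values stand on 1 to 6 counts a library. Summed over replicates, 599 counts with TGFβ1 stood against 9 untreated in PBRM1 KO cells, and 614 against 11 in control cells. The ratio was 69.1 in PBRM1 KO cells (exact 95% interval of counting error 36.2 to 152) and 56.6 in control cells (31.4 to 114).

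**Figure D1:**
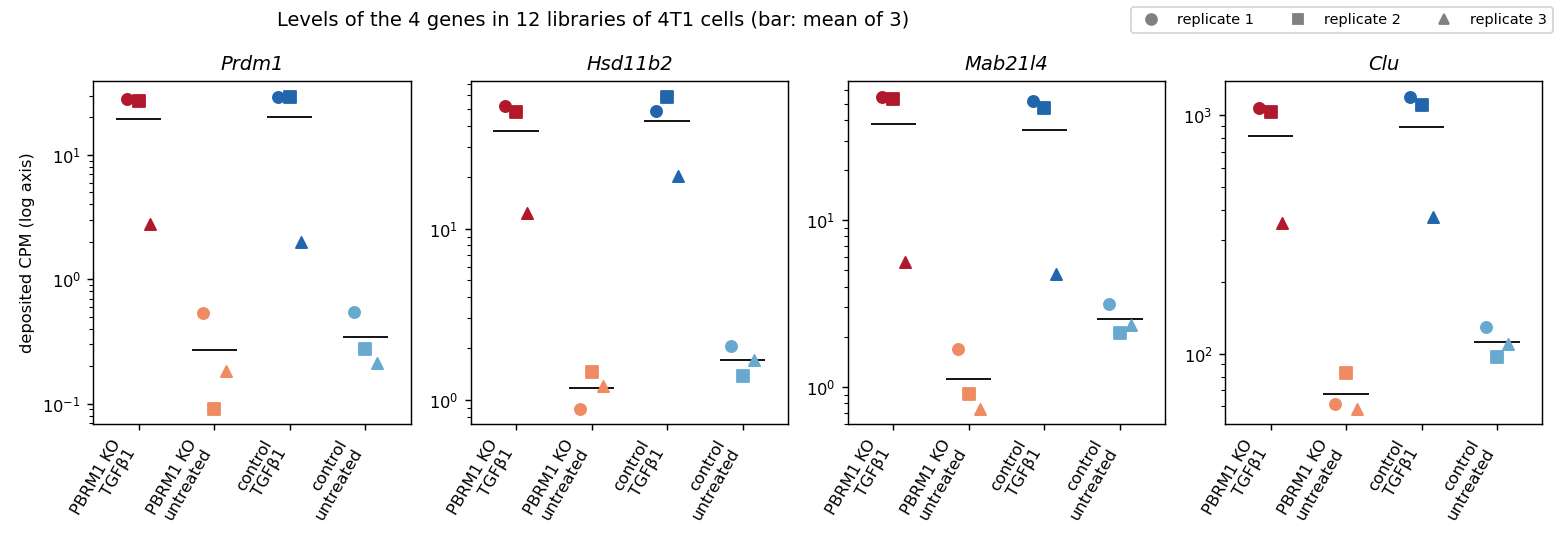
Deposited CPM on log axes of the 4 genes in each of 12 libraries, by group, with the symbol giving the replicate and a bar the mean of 3. Replicate 3 with TGFβ1 is the lowest of its group for every gene, from 1.99 CPM for Prdm1 to 375 CPM for Clu in control cells, and is still above all untreated libraries of its genotype.

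Hsd11b2, which removes active glucocorticoid, had 51.9, 48.1 and 12.3 CPM in PBRM1 KO cells with TGFβ1, against 0.889, 1.46 and 1.20 CPM untreated. Control cells had 48.7, 59.1 and 20.3 CPM with TGFβ1, against 2.08, 1.38 and 1.70 CPM untreated. The untreated groups of both genotypes overlapped, as did the TGFβ1 groups, and the lowest TGFβ1 library was well above the highest untreated one.

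Mab21l4, the Mab-21 domain gene, had 55.0, 53.1 and 5.63 CPM in PBRM1 KO cells with TGFβ1, against 1.69, 0.910 and 0.740 CPM untreated. Its levels in control cells were 51.9, 46.9 and 4.73 CPM with TGFβ1, against 3.16, 2.12 and 2.34 CPM untreated. The control TGFβ1 replicate 3, at 4.73 CPM, was thus close to the highest untreated control library, at 3.16 CPM.

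Clu, the secreted chaperone, was not near zero before treatment. It had 1073, 1030 and 352 CPM in PBRM1 KO cells with TGFβ1, against 61.4, 82.9 and 58.6 CPM untreated. Its levels in control cells were 1195, 1099 and 375 CPM with TGFβ1, against 129, 97.1 and 109.6 CPM untreated. Every untreated PBRM1 KO library lay below every untreated control library.

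In the fit over all 12 libraries, the log2 difference of TGFβ1 minus untreated in PBRM1 KO cells was 6.06 ± 1.24 (SE) for Prdm1, 4.95 ± 0.60 for Hsd11b2, 5.04 ± 0.99 for Mab21l4 and 3.58 ± 0.44 for Clu. In control cells it was 5.78 ± 1.20 for Prdm1, 4.62 ± 0.57 for Hsd11b2, 3.74 ± 0.89 for Mab21l4 and 2.99 ± 0.43 for Clu. The median over all tested genes was near 0 in both. Ordered by size among the 14012 tested genes, these rises stood at places 6, 15, 13 and 46 in PBRM1 KO cells for Prdm1, Hsd11b2, Mab21l4 and Clu, and at 5, 15, 28 and 53 in control cells. As background, 7.65% of tested genes were called higher with TGFβ1 in PBRM1 KO cells and 5.89% in control cells, and 16.1% in PBRM1 KO cells and 14.0% in control cells had every TGFβ1 library above every untreated one. The share called higher rested on single libraries. Its 1072 genes in PBRM1 KO cells became 1726 without PBRM1 KO TGFβ1 replicate 3, and fewer, down to 438, without any 1 of the other PBRM1 KO libraries. Its 826 genes in control cells became 1496 without control TGFβ1 replicate 3, and fewer, down to 262, without any 1 of the other control libraries. Nothing is read from the members' own place in that background, since the contrasts chose them. In bulk RNA, more cells with a transcript and more transcript per cell cannot be told apart.

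Genes that were under 5 CPM untreated and at 10 CPM or more with TGFβ1, as means of 3, numbered 50 in PBRM1 KO cells and 44 in control cells, of which 27 met both limits in both genotypes. Prdm1, Hsd11b2 and Mab21l4 are among the 27. Of the 50 in PBRM1 KO cells, the 5 with the most CPM with TGFβ1 were Col27a1 (a fibrillar collagen), Adamts4 (a secreted protease of proteoglycans), Itgb3 (integrin β3), Mab21l4 and Hsd11b2, with Prdm1 at place 13. Of the 44 in control cells they were Ctla2a (a cysteine protease inhibitor), Hsd11b2, Itgb3, Mab21l4 and the predicted gene Gm6392, with Prdm1 at place 10. Ctla2a and Gm6392 had fractional counts in 11 libraries each, so their values include reads that were split with other genes.

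TGFβ1 replicate 3 rose less for all 4 genes, but not to the same degree. In CPM, the mean of replicates 1 and 2 over replicate 3 in PBRM1 KO cells was 9.93 for Prdm1 and 9.60 for Mab21l4, and in control cells 14.7 for Prdm1 and 10.4 for Mab21l4. For Hsd11b2 these ratios were 4.05 in PBRM1 KO cells and 2.66 in control cells, and for Clu 2.99 in PBRM1 KO cells and 3.06 in control cells. Both genotypes thus had Prdm1 and Mab21l4 apart from Hsd11b2 and Clu.

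Measured on scaled log2 CPM with a prior count of 2, as a share of the rise of replicates 1 and 2, replicate 3 reached 0.469 for Prdm1, 0.621 for Hsd11b2, 0.412 for Mab21l4 and 0.608 for Clu in PBRM1 KO cells. In control cells it reached 0.360 for Prdm1, 0.715 for Hsd11b2, 0.210 for Mab21l4 and 0.526 for Clu. Set beside them were genes at least 2-fold higher in replicates 1 and 2 of the other genotype. Of these, 641 in PBRM1 KO cells had a median share of 0.431, with quartiles at 0.227 and 0.609, and 741 in control cells had a median of 0.371, with quartiles at 0.123 and 0.597. Hsd11b2 kept a share above the upper quartile in both genotypes. Prdm1, Mab21l4 and Clu lay within the quartiles in both. The labels do not say what set replicate 3 apart, and its part in the results was not tested.

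**Figure D2:**
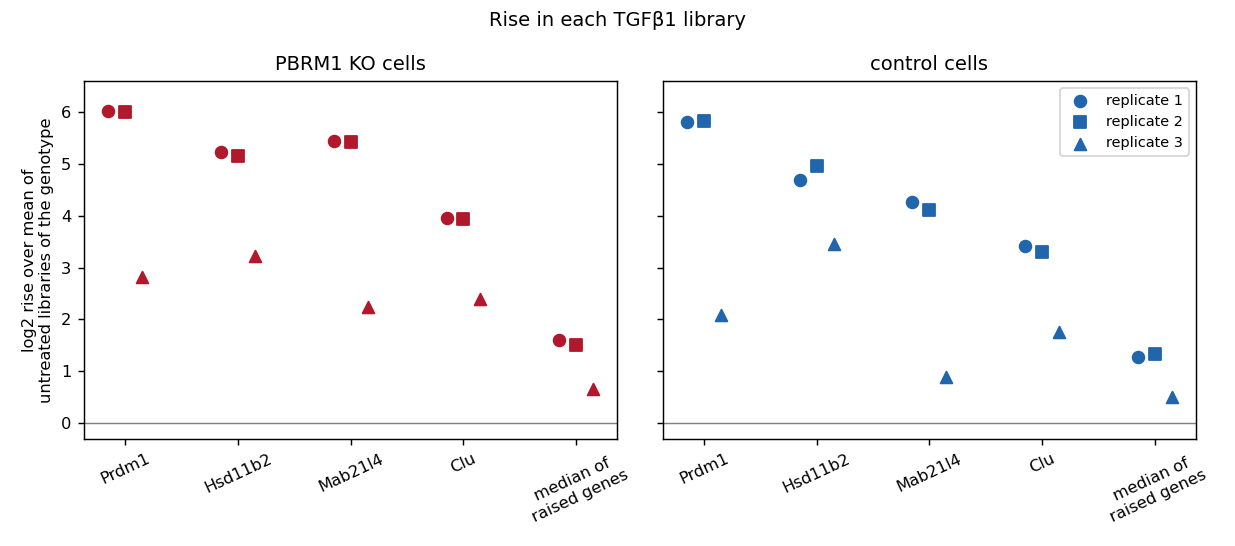
Log2 rise of each TGFβ1 library over the mean of the untreated libraries of its genotype, on scaled log2 CPM with a prior count of 2, for the 4 genes and for the median of genes raised in the other genotype. In control cells Mab21l4 replicate 3 rose by 0.88 and Hsd11b2 replicate 3 by 3.45.

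Without both TGFβ1 replicate 3 libraries the log2 differences were 6.57, 5.37, 5.56 and 3.93 in PBRM1 KO cells for Prdm1, Hsd11b2, Mab21l4 and Clu, and 6.32, 4.95, 4.26 and 3.35 in control cells. The order of the 4 genes within each genotype was the same as with all libraries.

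Loss of PBRM1 was then compared within each treatment, a comparison that did not choose the genes, though it uses the same libraries. With TGFβ1, PBRM1 KO and control libraries overlapped for all 4, while 6.28% of tested genes had every PBRM1 KO library above every control library and 5.61% had every one below. Mean levels were 19.3 ± 14.3 CPM in PBRM1 KO cells and 20.1 ± 15.7 CPM in control cells for Prdm1 (SD, n = 3 each). Hsd11b2 averaged 37.4 ± 21.8 CPM in PBRM1 KO cells and 42.7 ± 20.1 CPM in control cells. Mab21l4 averaged 37.9 ± 28.0 CPM in PBRM1 KO cells and 34.5 ± 25.9 CPM in control cells, and Clu 818 ± 405 CPM in PBRM1 KO cells and 889.8 ± 449 CPM in control cells. The log2 differences, PBRM1 KO minus control, were −0.08 ± 0.71 for Prdm1, −0.21 ± 0.41 for Hsd11b2, 0.12 ± 0.68 for Mab21l4 and −0.13 ± 0.39 for Clu. None of the 4 was called by edgeR (adjusted p from 0.949 to 0.993), DESeq2 or limma-voom, and none had an unadjusted p below 0.05 in any of them. Over all genes, edgeR called 0.0714% higher and 0.2% lower, and 8.52% had an unadjusted p below 0.05. The 95% intervals ran from −1.60 to 1.45 for Prdm1, −1.10 to 0.69 for Hsd11b2, −1.35 to 1.60 for Mab21l4 and −0.98 to 0.71 for Clu. These come from the fit without pairing, in which a 2-fold change either way lies within the intervals of Prdm1 and Mab21l4. A 2-fold fall also lies within that of Hsd11b2. With the replicate number as a block the values were −0.03 ± 0.19 for Prdm1 (95% interval −0.43 to 0.37), −0.27 ± 0.20 for Hsd11b2 (−0.70 to 0.16), 0.13 ± 0.29 for Mab21l4 (−0.49 to 0.75) and −0.13 ± 0.27 for Clu (−0.72 to 0.46). A 2-fold change lies outside these for all 4 genes, while smaller differences lie within them. The block spans all 12 libraries, though untreated libraries of the same number did not pair (0.149, 0.0690 and 0.125). The narrower intervals thus hold only as far as the pairing does, which the labels do not give.

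The sign of these small differences moved with single libraries. Leaving out TGFβ1 replicate 3 of PBRM1 KO cells gave 0.44 for Prdm1, 0.21 for Hsd11b2, 0.64 for Mab21l4 and 0.22 for Clu. Leaving out that of control cells gave −0.62 for Prdm1, −0.54 for Hsd11b2, −0.40 for Mab21l4 and −0.50 for Clu. None of these values passed. Replicate 3 was the lowest TGFβ1 library for all 4 genes in both genotypes. Leaving it out of a single genotype thus raises the mean of that genotype, so the direction of these shifts was set beforehand. Without both TGFβ1 replicate 3 libraries the differences were −0.10 for Prdm1, −0.12 for Hsd11b2, 0.12 for Mab21l4 and −0.14 for Clu. Their signs were those of the fit over all 12 libraries. Replicate numbers paired the TGFβ1 libraries by their deviations alone, not by the labels, and with the block no call of the 4 genes changed.

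In untreated cells the point estimates for Clu, Mab21l4 and Hsd11b2 were lower in PBRM1 KO cells. That of Prdm1 rested on 9 counts in PBRM1 KO cells and 11 in control cells, so its direction is not read. Clu averaged 67.6 ± 13.3 CPM in PBRM1 KO cells and 111.8 ± 16.0 CPM in control cells (SD, n = 3 each), and Mab21l4 averaged 1.11 ± 0.506 CPM in PBRM1 KO cells and 2.54 ± 0.551 CPM in control cells. For both, each PBRM1 KO library lay below each control library, which 8.71% of all tested genes also did (6.95% did so the other way). Hsd11b2, at 1.18 ± 0.284 CPM in PBRM1 KO cells and 1.72 ± 0.349 CPM in control cells, and Prdm1, at 0.270 ± 0.233 CPM in PBRM1 KO cells and 0.344 ± 0.175 CPM in control cells, had overlapping libraries.

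Fitted over all 12 libraries, the log2 difference of PBRM1 KO minus control was −0.73 ± 0.41 for Clu (edgeR adjusted p = 0.802), −1.18 ± 1.29 for Mab21l4 (adjusted p = 0.942) and −0.54 ± 0.84 for Hsd11b2 (adjusted p = 0.973). None of these 3 was called by edgeR, DESeq2 or limma-voom, or had an unadjusted p below 0.05. Over all genes, edgeR called 0.236% lower and 0.0428% higher, and 7.6% had an unadjusted p below 0.05. Prdm1, with 9 counts in PBRM1 KO cells and 11 in control cells, was too low for this test, and its ratio of summed counts was 0.775 (exact 95% interval of counting error 0.284 to 2.06). This fit takes 1 spread per gene from all groups, the TGFβ1 groups with their low replicate 3 included. Fitted on the 6 untreated libraries alone, Clu was lower in PBRM1 KO cells, with a log2 difference of −0.72 ± 0.13 (edgeR adjusted p = 0.0253), beside 0.753% of genes called lower and 0.254% higher. Mab21l4, at −1.17 ± 0.31, did not pass there (edgeR adjusted p = 0.126), nor did Hsd11b2 (adjusted p = 0.566), and Prdm1 was under the count filter.

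The call on Clu also appeared without both TGFβ1 replicate 3 libraries (edgeR adjusted p = 0.00655, beside 1.02% of genes called lower and 0.393% higher), where Mab21l4 had adjusted p = 0.0550. With no filter on low counts, over 33568 genes, the edgeR adjusted p was 7.83e-08 for Clu and 0.00505 for Mab21l4. Beside these, 0.569% of genes were called lower and 0.259% higher. That fit cut the SE of untreated Clu from 0.41 to 0.11. It also cut the SE of the TGFβ1 rise of Clu in control cells from 0.43 to 0.11, over libraries of 1195, 1099 and 375 CPM. Its SE thus does not carry the spread between replicates, and these p-values are not read as support. With the replicate number as a block on the 6 untreated libraries, a setting added after the data were seen, the adjusted p was 0.00512 for Clu and 0.0392 for Mab21l4, beside 1.81% of genes called lower and 0.925% higher. Clu was lower in PBRM1 KO cells in each of the 3 replicate numbers, which any pairing would give, since its libraries do not overlap. Same-numbered untreated libraries did not pair by their deviations (correlations 0.149, 0.0690 and 0.125). As ratios of summed counts, PBRM1 KO over control, Clu stood at 0.604 (exact 95% interval of counting error 0.572 to 0.637) and Mab21l4 at 0.438 (0.288 to 0.655), on 37 counts in PBRM1 KO cells and 80 in control cells. These intervals hold no spread between cultures.

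The interaction, the TGFβ1 difference in PBRM1 KO cells minus that in control cells, was 0.59 ± 0.57 for Clu, 0.34 ± 0.93 for Hsd11b2 and 1.30 ± 1.46 for Mab21l4. That of Prdm1 is not read, for its low untreated counts. The interaction shares its libraries with the contrasts that chose the genes. None of the 3 was called by edgeR (adjusted p = 1.00 each), DESeq2 or limma-voom, and none had an unadjusted p below 0.05. Over all genes edgeR called 0.0%, with 247 of 14012, or 1.76%, at an unadjusted p below 0.05. The 95% intervals, −0.63 to 1.81 for Clu and −1.85 to 4.46 for Mab21l4, leave room for a response that differs several-fold between genotypes.

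The patterns of the 4 genes over the 12 libraries were compared with each other and with 10276 tested genes of at least 5 CPM. The measure was the root mean square difference of log2 CPM after centring each gene on its mean, so that a small value means a like pattern, and it is a description with no test. Among the 4, Prdm1 and Mab21l4 were nearest at 0.63 and Prdm1 and Clu farthest at 1.12. The gene nearest to Prdm1 was Mmp9 (gelatinase B) at 0.62, followed by Mab21l4, the serine protease gene Prss46 at 0.68, Itgb3 at 0.74 and the matricellular protein gene Smoc1 at 0.76.

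Nearest to Hsd11b2 were Mmp9 at 0.37, Tnc (tenascin C) at 0.41, Smoc1 at 0.43, Itgb3 at 0.44 and the receptor gene Cd40 at 0.59. Nearest to Mab21l4 were Prss46 at 0.44, Col27a1 at 0.49, Smoc1 at 0.50, Adamts4 at 0.54 and Itgb3 at 0.59. Smoc1 and Itgb3 thus stood among the 5 nearest of all 3 near-zero genes. Mmp9, for example, averaged 756 CPM in PBRM1 KO cells with TGFβ1 and 20.0 CPM in untreated PBRM1 KO cells, and 652 CPM with TGFβ1 and 23.9 CPM untreated in control cells.

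Clu had other neighbours. Among its 5 nearest were the matricellular protein gene Ccn4 at 0.32, Adamts4 at 0.32, Ctla2a at 0.32 and the interleukin receptor subunit gene Il18rap at 0.35. Of these Adamts4 was also among the 5 nearest to Mab21l4.

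**Figure D3:**
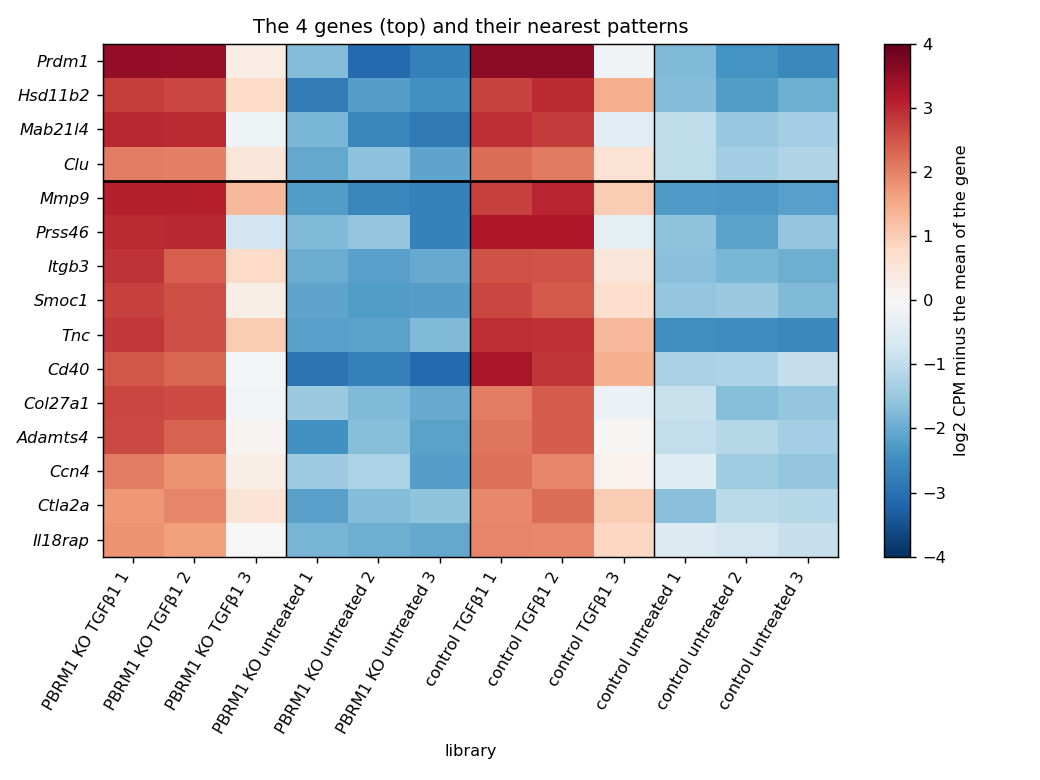
Log2 CPM minus the mean of each gene in 12 libraries for the 4 genes, above the line, and 11 further genes among the 5 nearest of at least 1 of them. Columns 1 and 2 of each TGFβ1 group are high and column 3 is intermediate, from −0.75 for Prss46 to 1.29 for Mmp9 in PBRM1 KO cells and from −0.42 for Mab21l4 to 1.47 for Hsd11b2 in control cells.

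Genes around the members were taken as 8 lists, in which 91 tested genes other than the 4 were counted. SMAD targets, chosen as a gauge of TGFβ1 signalling, rose in 12 of 15 tested genes in PBRM1 KO cells and 11 of 15 in control cells, and none fell. No SMAD target had an unadjusted p below 0.05 for a fall in edgeR, DESeq2 or limma-voom. The list median was log2 1.05 in PBRM1 KO cells and 0.86 in control cells, beside medians near 0 over all genes and a background of 7.65% of genes called higher in PBRM1 KO cells and 5.89% in control cells.

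Of the SMAD targets, Fn1, which encodes fibronectin, rose by 1.70 ± 0.13 in PBRM1 KO cells (edgeR adjusted p = 1.42e-05) and 1.65 ± 0.13 in control cells (adjusted p = 2.49e-05). Ccn2, a matricellular growth factor, rose by 2.64 ± 0.27 in PBRM1 KO cells and 2.49 ± 0.27 in control cells. Smad7, the inhibitory SMAD, rose by 0.90 in PBRM1 KO cells and 1.02 ± 0.22 in control cells. Hmga2, an architectural chromatin protein gene, did not pass in either genotype, with −0.03 in PBRM1 KO cells and 0.39 in control cells. The number called in control cells was 7 with limma-voom, and it fell to 2 or 3 when any untreated control replicate or control TGFβ1 replicate 1 or 2 was left out. In PBRM1 KO cells it fell to 7 without untreated replicate 1 or TGFβ1 replicate 2.

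**Figure D4:**
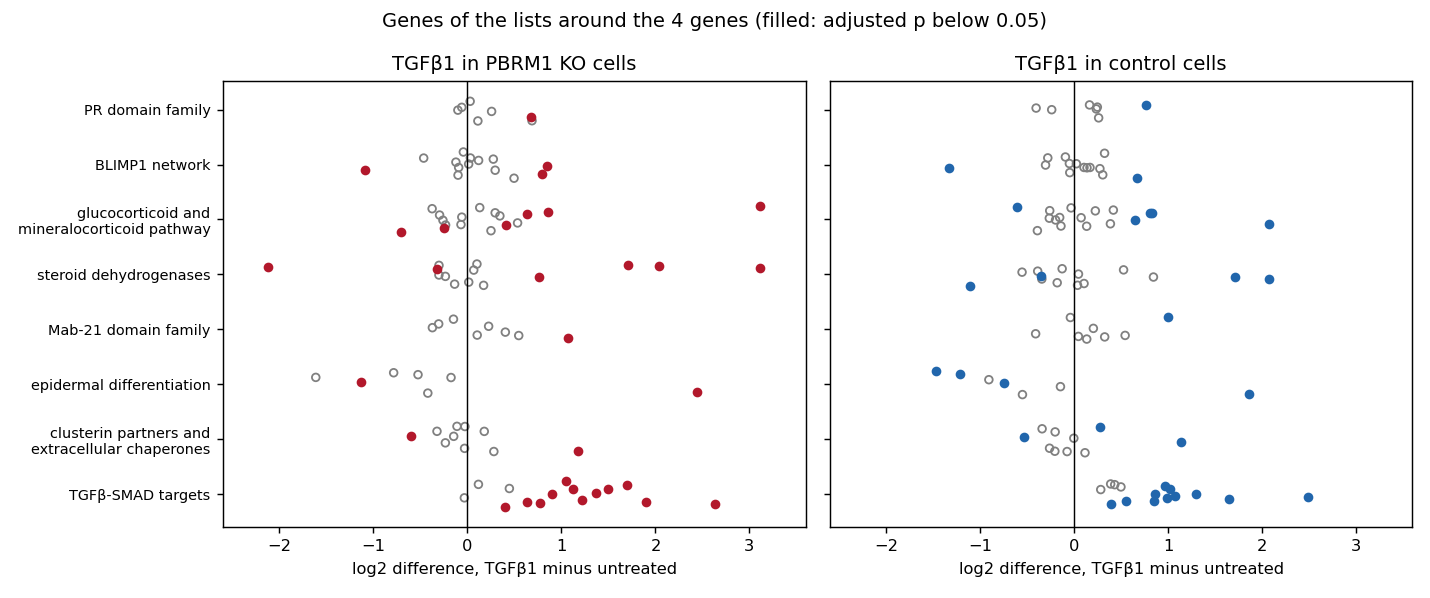
Log2 difference of TGFβ1 minus untreated in PBRM1 KO cells (left) and control cells (right) for the tested genes of 8 lists around the members, with filled points where the edgeR adjusted p was below 0.05. All SMAD targets but Hmga2 in PBRM1 KO cells, at −0.03, lie to the right of 0, with a median of 1.05 in PBRM1 KO cells and 0.86 in control cells, and the other lists have points on both sides.

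Of 14 other PR domain genes, the family of Prdm1, 7 were tested. Of these 1 was called, Mecom (EVI1), higher by 0.68 ± 0.17 in PBRM1 KO cells (edgeR adjusted p = 0.0192) and 0.77 ± 0.17 in control cells (adjusted p = 0.0175). It averaged 14.9 CPM with TGFβ1 and 9.22 CPM untreated in PBRM1 KO cells, and 11.6 CPM with TGFβ1 and 6.80 CPM untreated in control cells. In each genotype the Mecom call was lost when any of its untreated replicates or TGFβ1 replicate 1 or 2 was left out, and 2 genes passed in PBRM1 KO cells without TGFβ1 replicate 3. Prdm2, with group means of 13.2 to 17.1 CPM, and Prdm4, with 37.6 to 42.2 CPM, did not pass. Over all genes, 7.65% were called higher in PBRM1 KO cells and 5.89% in control cells.

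Of 14 tested genes tied to BLIMP1 in lymphocytes (partners, corepressors and repressed targets), 2 rose and 1 fell in PBRM1 KO cells. In control cells 1 rose and 1 fell. Of all genes, 7.65% were called higher and 3.72% lower in PBRM1 KO cells, and 5.89% and 2.91% in control cells. Xbp1, a driver of the secretory programme, rose by 0.84 ± 0.15 in PBRM1 KO cells (edgeR adjusted p = 0.00412) and 0.67 ± 0.15 in control cells (adjusted p = 0.0176). Tle4, a Groucho corepressor, fell by 1.09 ± 0.19 in PBRM1 KO cells and fell by 1.33 ± 0.20 in control cells. Tcf7 rose by 0.79 ± 0.21 in PBRM1 KO cells (adjusted p = 0.0314).

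Of genes that BLIMP1 represses in B cells, Myc averaged 187 CPM with TGFβ1 and 203 CPM untreated in PBRM1 KO cells, and 186 CPM with TGFβ1 and 183 CPM untreated in control cells, with no call. Pax5 and Ciita were at 0.344 CPM or less in every group mean. Also on the BLIMP1 list, though not as a repressed gene, Irf4 had no count. Id3 (−0.47 in PBRM1 KO and −0.30 in control cells) and Bcl6 (0.03 and −0.05) of that list did not pass. With the replicate as a block 6 genes of the list passed in PBRM1 KO cells in place of 3. It was 5 without PBRM1 KO TGFβ1 replicate 3, and in control cells 1 in place of 2 without untreated replicate 2 or 3 or TGFβ1 replicate 1 or 2. B and plasma cell markers summed to 4.73 CPM or less in every library.

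Around Hsd11b2, 17 tested genes of corticosteroid action gave 4 higher and 2 lower in PBRM1 KO cells and 4 higher and 1 lower in control cells. The shares over all genes were 7.65% higher and 3.72% lower in PBRM1 KO cells, and 5.89% and 2.91% in control cells. Hsd11b1, the enzyme that runs the reverse step and regenerates corticosterone, rose by 3.11 ± 0.51 in PBRM1 KO cells (edgeR adjusted p = 0.00232) and 2.07 ± 0.40 in control cells (adjusted p = 0.00793). It did so at low levels, 3.28 CPM with TGFβ1 and 0.363 CPM untreated in PBRM1 KO cells, and 4.80 CPM with TGFβ1 and 1.15 CPM untreated in control cells. Fkbp5, a receptor co-chaperone and glucocorticoid target, rose by 0.86 ± 0.15 in PBRM1 KO cells and 0.83 ± 0.15 in control cells. Sgk1, a kinase induced by corticosteroids, rose by 0.41 ± 0.10 in PBRM1 KO cells and 0.65 ± 0.10 in control cells.

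The glucocorticoid receptor gene Nr3c1 fell by 0.70 ± 0.13 in PBRM1 KO cells (edgeR adjusted p = 0.00568) and fell by 0.61 ± 0.14 in control cells (adjusted p = 0.0166). The mineralocorticoid receptor gene Nr3c2 was at 0.0961 CPM or less in each group mean, under the count filter. Tsc22d3 (GILZ) and Per1, both glucocorticoid targets, did not pass, with Tsc22d3 at 28.2 CPM with TGFβ1 and 25.5 CPM untreated in PBRM1 KO cells, and at 32.1 CPM with TGFβ1 and 29.1 CPM untreated in control cells. The number called in this list was 3 in place of 6 without PBRM1 KO untreated replicate 2. In control cells it was 3 in place of 5 without untreated replicate 1 and 8 without TGFβ1 replicate 3. Markers of the kidney collecting duct summed to 1.20 CPM or less, with Aqp2, Avpr2 and Foxi1 at 0 in all libraries.

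Of 14 tested steroid and retinoid dehydrogenases, 4 rose and 2 fell in PBRM1 KO cells, and 2 rose and 2 fell in control cells. Beside these, 7.65% of all genes were called higher and 3.72% lower in PBRM1 KO cells, and 5.89% and 2.91% in control cells. Rdh10, which oxidises retinol, rose by 2.04 ± 0.22 in PBRM1 KO cells (edgeR adjusted p = 0.000160) and 1.71 ± 0.22 in control cells (adjusted p = 0.000504). Dhrs9 fell by 2.12 ± 0.21 in PBRM1 KO cells and fell by 1.11 ± 0.21 in control cells. Hsd17b11 rose in PBRM1 KO cells by 1.71 ± 0.36 and averaged 5.36 CPM with TGFβ1 and 1.60 CPM untreated there, against 9.77 CPM with TGFβ1 and 5.42 CPM untreated in control cells. Without PBRM1 KO TGFβ1 replicate 3, 7 genes were called in control cells in place of 4.

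Of 8 tested Mab-21 domain genes other than Mab21l4, Itprip, which binds the inositol trisphosphate receptor, was called, higher by 1.07 ± 0.17 in PBRM1 KO cells (edgeR adjusted p = 0.00204) and 1.00 ± 0.17 in control cells (adjusted p = 0.00381). Cgas, the DNA sensor of this fold, averaged 30.3 CPM with TGFβ1 and 33.4 CPM untreated in PBRM1 KO cells, and 30.6 CPM with TGFβ1 and 27.9 CPM untreated in control cells. The count of 1 became 3 without PBRM1 KO TGFβ1 replicate 3 in those cells, and 2 without control TGFβ1 replicate 3 in control cells. With all libraries, 7.65% of all genes were called higher in PBRM1 KO cells and 5.89% in control cells.

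Epidermal differentiation genes, taken because of the keratinocyte role of human MAB21L4, were mostly silent, with 7 of 30 tested. Sfn (14-3-3σ) was higher by 2.44 ± 0.56 in PBRM1 KO cells (edgeR adjusted p = 0.0139) and 1.86 ± 0.54 in control cells (adjusted p = 0.0497). Its counts were fractional in all 12 libraries and limma-voom did not call it in either genotype. Ovol1, a zinc finger regulator of epidermis, fell by 1.13 ± 0.26 in PBRM1 KO cells, and in control cells it also passed (edgeR adjusted p = 0.0102), at 3.03 CPM with TGFβ1 and 7.11 CPM untreated. In control cells Lypd3 fell by 0.75 ± 0.18 and Sbsn fell by 1.47 ± 0.38. The list thus had 1 higher and 1 lower in PBRM1 KO cells, and 1 higher and 3 lower in control cells. Among all genes, 7.65% were called higher and 3.72% lower in PBRM1 KO cells, and 5.89% and 2.91% in control cells.

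The list's calls were few and leaned on single libraries. The 2 in PBRM1 KO cells became 0 or 1 without any untreated replicate or without TGFβ1 replicate 1 or 2, and 4 with the replicate as a block. The 4 in control cells became 0 or 1 without untreated replicate 2 or 3 or TGFβ1 replicate 1 or 2.

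Of 10 tested clusterin partners and extracellular chaperones, 1 rose and 1 fell in PBRM1 KO cells, and 2 rose and 1 fell in control cells. Over all genes the shares were 7.65% higher and 3.72% lower in PBRM1 KO cells, and 5.89% and 2.91% in control cells. Lrp1, an endocytic receptor of the LDL receptor family, rose by 1.18 ± 0.17 in PBRM1 KO cells (edgeR adjusted p = 0.000899) and 1.14 ± 0.17 in control cells (adjusted p = 0.00137). Xrcc6 (Ku70), a binding partner of nuclear clusterin, fell by 0.60 ± 0.14 in PBRM1 KO cells and fell by 0.53 ± 0.14 in control cells. Hspa5, the chaperone BiP, rose by 0.28 ± 0.07 in control cells. In PBRM1 KO cells 5 genes passed with the replicate as a block in place of 2. It was 1 there without untreated replicate 1 or TGFβ1 replicate 1 or 2, and 4 without TGFβ1 replicate 3. In control cells it was 1 in place of 3 without untreated replicate 2 or 3 or TGFβ1 replicate 1 or 2.

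Between genotypes, edgeR called none of the 91 list genes, either with TGFβ1 (7 at an unadjusted p below 0.05), untreated (11) or in the interaction (1). DESeq2 called 1 of them, Hsd17b11 in untreated cells, and limma-voom none. Untreated Hsd17b11 averaged 1.60 CPM in PBRM1 KO cells and 5.42 CPM in control cells, a log2 difference of −1.75 ± 0.35 (edgeR adjusted p = 0.0659). Other cell types were followed by markers. Leukocyte markers summed to 25.4 to 28.7 CPM in PBRM1 KO cells with TGFβ1 and 17.2 to 22.0 CPM untreated, and to 24.3 to 29.1 CPM with TGFβ1 and 18.5 to 21.4 CPM untreated in control cells. Cd14 made up most of that sum, and Ptprc, the general leukocyte marker, was at 0.181 CPM or less. Of their 8 genes 3 were tested, and 1 of these, Cd14, rose in both genotypes. The share of all genes called higher was 7.65% in PBRM1 KO cells and 5.89% in control cells.

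Fibroblast markers summed to 29.0 to 58.3 CPM in PBRM1 KO cells with TGFβ1 and 28.8 to 39.5 CPM untreated, and to 33.8 to 106 CPM with TGFβ1 and 35.4 to 49.8 CPM untreated in control cells, with 0 of 5 tested genes called. Endothelial markers summed to 1.38 CPM or less. Of 7 tested epithelial markers, Krt8, Krt19 and Cdh1 fell with TGFβ1 in both genotypes, and Krt18 in control cells, by edgeR. The share of all genes called lower was 3.72% in PBRM1 KO cells and 2.91% in control cells. Cdh1 (E-cadherin) fell by 0.59 ± 0.12 in PBRM1 KO cells (edgeR adjusted p = 0.00738) and fell by 0.75 ± 0.12 in control cells (adjusted p = 0.00222). Krt7, Krt14 and Epcam had positive differences. Epcam did not pass, at 0.30 ± 0.15 in PBRM1 KO cells (edgeR adjusted p = 0.216) and 0.02 ± 0.15 in control cells (adjusted p = 0.944). Krt14 stood at 35.4 CPM with TGFβ1 and 7.41 CPM untreated in PBRM1 KO cells (log2 difference 2.23 ± 0.70, edgeR adjusted p = 0.0568), and at 55.2 CPM with TGFβ1 and 20.6 CPM untreated in control cells (1.41 ± 0.63, adjusted p = 0.188). Krt7 stood at 812 CPM with TGFβ1 and 521 CPM untreated in PBRM1 KO cells (0.63 ± 0.21, edgeR adjusted p = 0.0720), and at 748 CPM with TGFβ1 and 609.8 CPM untreated in control cells (0.29 ± 0.21, adjusted p = 0.425). DESeq2 called Krt7 and Krt14 higher in PBRM1 KO cells, and limma-voom neither. The part of these changes in the rise of the 4 genes was not tested.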

How the data were processed

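The deposited values were estimated counts made by the authors, per the file values, since 91.8% of them were whole (tolerance 0) and the rest fractional. The deposited CPM, named so per the file headers, was each count over its library's total, to within 4.85e-06. Per the labels' protocols, cDNA was primed on the poly(A) tail, sequenced stranded at the 3′ end, and deduplicated with molecular identifiers. The submitters' processing notes name edgeR 3.38.4, Subread 2.1.1, featureCounts, SAMtools 1.22.1, STAR 2.7.11, fastp 0.24.0 and build mm39. No source used here gives the annotation release. ERCC spike-ins (92 entries) held 0 counts. Prdm1 had fractional counts in 1 library and Clu in 2. Among other named genes, Fn1 and Ctla2a had them in 10 and 11.

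Counts were rounded, filtered with filterByExpr and scaled by TMM. All 12 libraries were fitted with 1 mean per group by edgeR 4.0.16 (quasi-likelihood test, R 4.3.3), with Benjamini-Hochberg adjusted p below 0.05 over 14012 genes. The SE is the log2 difference over the square root of F, and the common coefficient of variation was 12.5%. DESeq2 1.42.0, limma-voom (limma 3.58.1), other scalings, filters and fits, and each library left out in turn were alternatives. The code was tested on simulated data.

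Members and lists were chosen with earlier results of these data known. Named genes were the members, the 5 nearest patterns of each, up to 4 called genes per direction and list (or the 2 of smallest p), and the 5 near-zero genes of most CPM. Of these, 1 gene is not reported here and was left out of the lists. Others, such as Prdm2, Prdm4, Myc, Pax5, Ciita, Irf4, Nr3c2, Tsc22d3, Per1, Cgas and Hmga2, were chosen after their values were seen. The lists were the PR domain family, BLIMP1 network, corticosteroid pathway, steroid dehydrogenases, Mab-21 domain family, epidermal differentiation, clusterin partners and SMAD targets.

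The labels number biological replicates without tying a number to a day, so p-values measure the spread between these samples. For TGFβ1 in PBRM1 KO cells, the deviations of libraries with the same number had correlations of 0.201, 0.139 and 0.202. For genotype with TGFβ1 these were 0.396, 0.416 and 0.726. All lay over 0.1, so same-numbered libraries were held to pair in both contrasts, on the data alone. The main fit nevertheless had no pairing in any contrast, and the replicate block was run as an alternative.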

Additional observations from a re-analysis of the deposited data

How the results depend on the processing

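The log2 rises of the 4 genes with TGFβ1 kept their direction in every alternative run. Untreated Clu passed between genotypes with no count filter (−0.70), without both TGFβ1 replicate 3 libraries (−0.73), on the 6 libraries compared (−0.72) and on those with the replicate block (−0.72). Untreated Mab21l4 passed with no filter (−1.16) and with the replicate block on those 6 (−1.17). With no filter the SE fell from 0.41 to 0.11 for Clu and from 1.29 to 0.27 for Mab21l4, so these passes are not read as support. With limma-voom, Prdm1 with TGFβ1 reversed to 0.076. The causes were not tested. Leaving out single libraries moved untreated Prdm1 over −1.28 to 0.12 and its interaction over −0.26 to 1.20. With TGFβ1 the same gave −0.62 to 0.44 for Prdm1, −0.54 to 0.21 for Hsd11b2, −0.40 to 0.64 for Mab21l4 and −0.50 to 0.22 for Clu. Without both TGFβ1 replicate 3 libraries, genes called with TGFβ1 numbered 2277 higher and 1707 lower in PBRM1 KO cells, against 1072 and 521 with all libraries, and 1988 and 1426 in control cells, against 826 and 408. With the replicate block these were 1682 and 1098 in PBRM1 KO cells and 1507 and 890 in control cells. No filter gave 1404 higher and 711 lower in control cells and 913 lower in PBRM1 KO cells. Leaving out single libraries moved the TGFβ1 counts over 438 to 1726 higher and 175 to 1333 lower in PBRM1 KO cells, and over 262 to 1496 higher and 146 to 904 lower in control cells. Genes called between genotypes ranged over 0 to 124 higher (6 with all libraries) and 8 to 243 lower (33) untreated, and over 0 to 400 higher (10) and 3 to 481 lower (28) with TGFβ1. The interaction had 8 higher and 10 lower with no filter. Same-numbered libraries did not pair for TGFβ1 in control cells (0.258, −0.0835 and 0.137) or for genotype untreated (0.149, 0.0690 and 0.125). The replicate block over all 12 libraries changed no call of the 4 genes between genotypes. At least 4 of the 5 nearest patterns of each gene were shared under other level filters and prior counts. Untreated Prdm1 rests on 1 to 6 counts a library, which limits any genotype comparison of it.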
